A study of Mus musculus with 15 samples.

Results

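The Platr and Snhg genes are long noncoding RNA genes of the mouse, and here they were followed with Malat1, Neat1, Gas5, Lncenc1 and Sox2ot in embryonic stem cells with a knockdown of Smarcb1. Members were all rows whose symbol is Platr or Snhg followed by digits only, together with the 5 genes named, which gave 49 of the 55228 listed genes (28 Platr, 16 Snhg and the 5 others). Of these, 41 had a mean of 10 or more reads (20 Platr, all 16 Snhg and all 5 others), among 16369 genes that reached this minimum. The remaining 8 members were too low to be followed: Platr1, Platr5, Platr9, Platr13, Platr19, Platr29, Platr30 and Platr32.

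Total RNA was sequenced from 15 libraries of 81K1 cells, a single clone derived from the OG2 line that carries an anti-Smarcb1 shRNA cassette in the Rosa26 locus under a doxycycline-dependent promoter. The 5 groups of 3 libraries were untreated cells at 48 h and at 240 h (48 h ctrl, 240 h ctrl) and cells given 1 µg/ml doxycycline for 48, 72 or 240 h (48 h kd, 72 h kd, 240 h kd). Every group was grown on gelatine with serum and LIF, and the controls carried the same uninduced cassette. None of these libraries came from cells given doxycycline without an shRNA, so that an effect of doxycycline and of the knockdown cannot be told apart. The 72 h kd libraries have no control of their own time and were set against 48 h ctrl, so that time and knockdown cannot be told apart there either.

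Smarcb1 encodes a core part of BAF complexes, which remodel nucleosomes and open chromatin at promoters and enhancers. Platr stands for pluripotency-associated transcript: these genes were collected because their RNA is present in stem cells and is lost on differentiation, and most of them have no known function. Snhg genes host small nucleolar RNAs (snoRNAs) in their introns. Their spliced exons usually encode no protein and are often removed by nonsense-mediated decay once ribosomes engage them, and many start with a run of pyrimidines of the kind found in ribosomal protein messages. Gas5 is built the same way. Malat1 RNA lies in nuclear speckles, Neat1 is the scaffold on which paraspeckles assemble, Lncenc1 was described as a noncoding RNA of embryonic stem cells, and Sox2ot is a long transcript in whose intron the pluripotency gene Sox2 lies.

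Recovered totals ran from 11074998 to 14515300 reads a library. Smarcb1 itself lay at 3.41, 3.46 and 3.93 FPKM in 48 h ctrl cells and at 0.503, 0.820 and 0.618 FPKM in 48 h kd, a log2 difference of −2.49 (SE 0.13, adjusted p = 8.31e-08), and at −2.66 and −2.36 at 72 and 240 h. The 48 h kd replicate 2 library stood apart from its group: chi-square per degree of freedom was 11.2 and 9.07 against its 2 companions, compared with 1.31 to 5.02 for other pairs apart from one pair of 240 h ctrl at 8.89, and its mitochondrial share was 2.53%, against 0.507% to 1.95% elsewhere. Counts and medians over the members at 48 h, and the 48 h values of some members, are therefore also given without it. The background lists and the 48 h values less the genes inside a member are given only with it. The 9 pluripotency markers summed to between 4990 and 6807 RPM (reads scaled to the library total) in all libraries, lowest in 240 h kd at 4990 to 5065, while 5 neural progenitor markers summed to 57.0 to 63.8 in 48 h ctrl cells and to 123.6 to 127.2 in 240 h kd. Fibroblast markers summed to 7.58 to 8.61 in 240 h ctrl cells and 17.5 to 20.9 in 240 h kd, and primitive endoderm markers to 6.41 to 7.47 and 10.6 to 13.1. Trophoblast markers summed to 81.4 to 88.0 in 48 h ctrl cells, 52.9 to 57.0 in 48 h kd, 151.7 to 157.3 in 72 h kd cells, 68.9 to 75.1 in 240 h ctrl cells and 109.9 to 113.5 in 240 h kd, nearly all of it from Tfap2c. The part of these shifts in the results below was not tested, and fewer cells making an RNA cannot be told apart from less RNA per cell.

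Values are FPKM, counted over the whole gene span with introns included and without regard to strand. Of the 41 members followed, 28 overlap another listed gene, whose reads they share. Differences are log2 values from limma on RPM, with Benjamini-Hochberg adjustment over all 16369 genes. A member is called where the adjusted p is under 0.05 and the log2 difference is beyond 0.58 in either direction. Nothing in the labels says that the 3 libraries of a group were separate cultures, so the p-values measure the spread between these libraries only.

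Sequences are given first for the Platr RNAs with the largest differences at 240 h. Platr11 and Platr15 were lower in 240 h kd, and Platr16, which shares reads with Gm13230, and Platr3 were higher. The first 150 bases of their GENCODE transcripts follow, 5′ to 3′, with the first exon in capitals, which in Platr15 and Platr16 runs past the bases shown. Platr11 lies at chr9:118404097-118406099 on the minus strand, with 4 exons in 388 bases. Platr15 lies at chr2:150704536-150706876 on the minus strand, with 3 exons in 768 bases. The transcript shown of Platr16 lies at chr4:145410245-145432565 and that of Platr3 at chr2:135648907-135652063, both on the plus strand of GRCm38, with 3 exons in 375 bases and 4 exons in 412 bases. Reads of Platr16 were counted over a longer gene span of 39512 bp, which ends at chr4:145449756.
Platr11: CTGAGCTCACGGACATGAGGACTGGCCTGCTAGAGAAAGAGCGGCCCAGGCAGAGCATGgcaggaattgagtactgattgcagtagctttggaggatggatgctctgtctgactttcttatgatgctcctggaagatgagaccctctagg
Platr15: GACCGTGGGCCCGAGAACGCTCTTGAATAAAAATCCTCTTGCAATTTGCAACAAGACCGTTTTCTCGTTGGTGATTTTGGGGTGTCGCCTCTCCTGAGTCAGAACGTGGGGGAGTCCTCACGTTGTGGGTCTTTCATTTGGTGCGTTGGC
Platr16: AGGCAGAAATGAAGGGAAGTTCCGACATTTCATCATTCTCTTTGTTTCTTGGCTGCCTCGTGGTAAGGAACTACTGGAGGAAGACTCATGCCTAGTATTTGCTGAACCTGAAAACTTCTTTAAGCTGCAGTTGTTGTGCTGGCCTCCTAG
Platr3: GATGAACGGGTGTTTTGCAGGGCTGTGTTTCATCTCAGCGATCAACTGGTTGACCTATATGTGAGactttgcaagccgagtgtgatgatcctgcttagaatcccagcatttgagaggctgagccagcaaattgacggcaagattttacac

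RefSeq promoter windows of GRCm38.p6 (250 bases before to 50 after the start) were matched by symbol for 27 of the 41 members: 10 of 20 Platr, 14 of 16 Snhg and 3 of the 5 others. Windows of 4 members with large late changes are shown because they differ in their motifs. Capitals mark matches to CCAAT or TATAAA on either strand and the first transcribed base. Lncenc1 (chr13:97434720-97435019, plus) and Platr7 (chr10:84553289-84553588, minus), which rose, each hold 2 CCAAT matches. Platr14 (chr2:104559209-104559508, plus), which fell, holds neither motif, and Snhg8 (chr3:123508287-123508586, minus), which also fell, holds 1 of each.
Lncenc1: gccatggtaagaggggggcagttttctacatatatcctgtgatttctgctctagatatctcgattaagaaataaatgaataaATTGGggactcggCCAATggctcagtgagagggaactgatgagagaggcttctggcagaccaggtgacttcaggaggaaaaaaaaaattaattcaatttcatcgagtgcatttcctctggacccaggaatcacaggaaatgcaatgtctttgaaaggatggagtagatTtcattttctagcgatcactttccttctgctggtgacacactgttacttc
Platr7: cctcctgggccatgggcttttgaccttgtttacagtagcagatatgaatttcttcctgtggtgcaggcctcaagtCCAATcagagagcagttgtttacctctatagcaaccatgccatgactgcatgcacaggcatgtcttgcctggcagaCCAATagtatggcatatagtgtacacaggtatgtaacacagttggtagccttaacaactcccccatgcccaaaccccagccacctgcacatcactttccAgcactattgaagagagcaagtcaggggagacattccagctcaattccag
Platr14: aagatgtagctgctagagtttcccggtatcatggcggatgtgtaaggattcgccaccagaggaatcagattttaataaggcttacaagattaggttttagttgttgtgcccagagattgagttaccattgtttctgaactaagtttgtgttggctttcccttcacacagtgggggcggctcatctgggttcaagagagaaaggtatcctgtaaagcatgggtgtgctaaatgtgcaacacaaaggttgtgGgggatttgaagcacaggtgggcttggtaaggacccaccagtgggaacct
Snhg8: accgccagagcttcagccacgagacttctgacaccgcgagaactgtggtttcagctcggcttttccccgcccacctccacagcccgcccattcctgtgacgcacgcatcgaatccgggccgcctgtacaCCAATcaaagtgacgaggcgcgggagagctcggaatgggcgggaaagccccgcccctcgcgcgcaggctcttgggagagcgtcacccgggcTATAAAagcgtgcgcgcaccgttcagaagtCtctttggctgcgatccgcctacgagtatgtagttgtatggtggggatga

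TATAAA was found in 0 of 10 Platr windows and in 5 of 14 Snhg windows (Snhg1, Snhg3, Snhg5, Snhg8 and Snhg9), against 15.7% of the 27025 genes with a window. CCAAT was found in 5 of 10 Platr and 5 of 14 Snhg windows, against 41.1% of all. TGACTCA was in none of the members' windows and in 5.95% of all, and ATGCAAAT was in that of Platr21 alone among members and in 1.97% of all. CACGTG was in those of Platr10, Snhg9 and Snhg15, and in 8.09% of all. These matches describe the letters only.

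A pyrimidine start was defined as a C within 5 bases of the annotated start, on either side, that is followed by 4 or more C or T on the transcribed strand. Such a tract can lie wholly before the annotated start, as it does in Snhg9 and Snhg10. Pyrimidines before that C were not counted. It was found in 3 of 10 Platr genes and in 6 of 14 Snhg genes, against 21.2% of all genes with a window. The 6 Snhg genes were Snhg3, Snhg8, Snhg9, Snhg10, Snhg12 and Snhg18, and 1 of the 2 Gas5 starts had one too. Snhg8, Snhg9, Snhg10 and Snhg18 were called lower in 240 h kd, although Snhg9 and Snhg10 kept that call in 2 of 6 fits with 1 library left out and lost it once the reads of genes inside them were removed. Snhg3, Snhg12 and Gas5 were not called at 240 h, and 7.93% of all genes tested were called lower. A link between the tract and a fall was not tested. Windows of 30 bases, from 10 before the start, are shown with the tract in capitals, for Snhg8 (chr3:123508317-123508346, minus), Snhg18 (chr15:32244643-32244672, minus), Snhg10 (chr12:105032260-105032289, minus), Snhg9 (chr17:24719946-24719975, minus) and the second Gas5 start (chr1:161035156-161035185, plus).
Snhg8: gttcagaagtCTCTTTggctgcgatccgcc
Snhg18: cccaggCCCCTCCTCTagccccgcctcttc
Snhg10: ggttcCTTTTgcggtgattgctacggtaac
Snhg9: actttCCCTCgccgaagccgcgccctacac
Gas5: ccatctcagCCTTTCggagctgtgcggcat

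After 48 h of knockdown the changes in these genes were mostly small, that of Platr11 (−1.08) being the largest. Their direction on balance depended on 1 library, and after 240 h more of them had fallen than had risen. At 48 h, 6 of the 41 members were called higher, where 4.29% of all genes tested were, and 1 was called lower, where 4.81% of all were. At 72 h against 48 h ctrl, 3 were called higher (11.9% of all genes) and 7 lower (10.1% of all genes). At 240 h, 5 were called higher (9.0% of all genes) and 10 lower (7.93% of all genes). Without 48 h kd replicate 2, only Platr11 stayed called among the 7 at 48 h, where 596 of the 16369 genes were called higher and 855 lower. Against 240 h ctrl in place of 48 h ctrl, the 72 h libraries gave 0 higher members (13.9% of all genes) and 12 lower ones (11.6% of all genes), the 7 lower ones of the first comparison among them. The higher calls lay near the background at 240 h and below it at 72 h, and the share of lower calls was above the background at both times.

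The median log2 difference over the members was 0.09, −0.25 and −0.20 at 48, 72 and 240 h, where the median of all genes tested was 0.01, 0.01 and 0.00. At 48 h 29 members lay above 0 and 12 below. This turned to 17 above and 24 below, and the median to −0.03, without 48 h kd replicate 2. With the fold left aside, 11 members had an adjusted p under 0.05 on the higher side at 48 h and 2 on the lower side, beside 12.8% and 13% of all genes. Without that library these were 10 and 6 members, beside 14.3% and 15.7%. At 72 h these were 10 and 20 members, beside 32.0% and 29.5%, and at 240 h 10 and 21 members, beside 23.0% and 22.1%. At 72 and 240 h more members fell within the fold used for calls than beyond it.

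**Figure D1:**
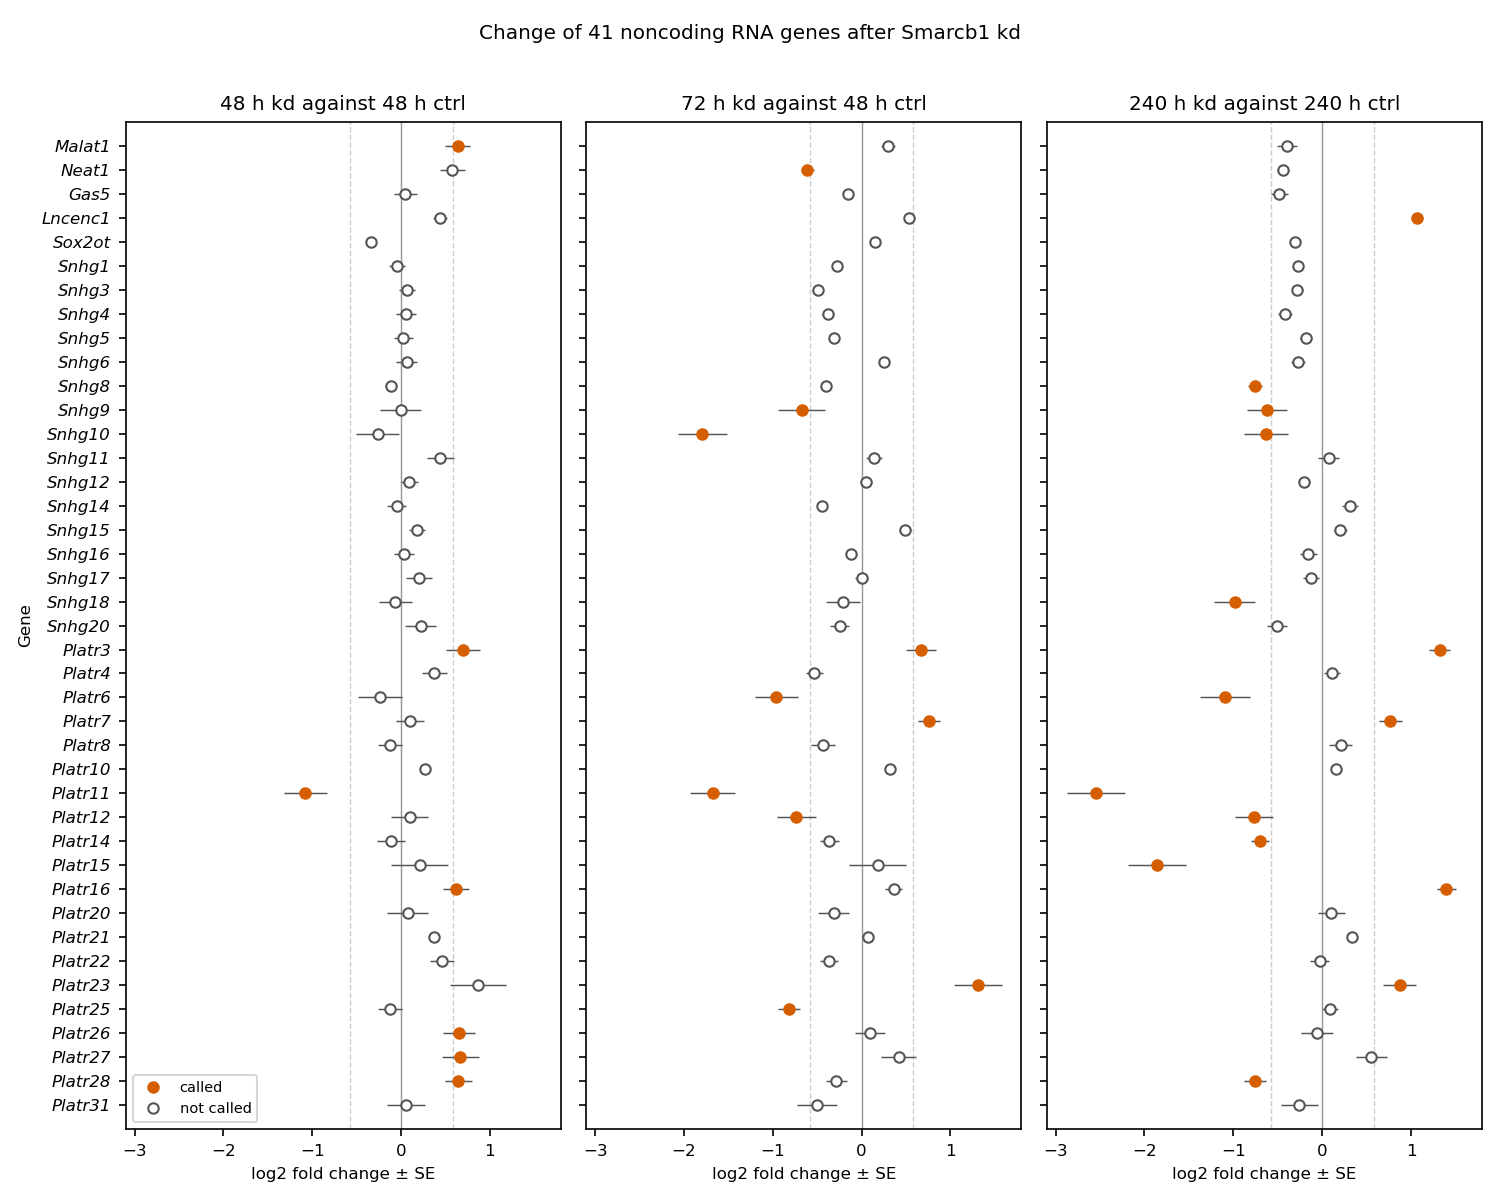
Log2 fold changes of the followed members in the 3 knockdown comparisons, 1 row a gene, with bars of 1 standard error, filled points for called members and dashed lines at the fold used for calls. Platr genes spread to both sides, from −2.55 to 1.40 at 240 h, while 13 of 16 Snhg genes lie below 0 at 240 h.

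Lncenc1 was higher in all 3 knockdown groups. Lncenc1 lay at 0.563, 0.534 and 0.511 FPKM in 48 h ctrl cells, 0.689, 0.815 and 0.690 in 48 h kd, 0.810, 0.801 and 0.728 in 72 h kd cells, 0.597, 0.589 and 0.494 in 240 h ctrl cells, and 1.19, 1.17 and 1.16 in 240 h kd. Every kd library was above every ctrl library. The difference was 0.44 (SE 0.08, adjusted p = 0.00124) at 48 h, 0.54 (SE 0.06, adjusted p = 3.71e-08) at 72 h and 1.07 (SE 0.07, adjusted p = 1.03e-09) at 240 h, of which only the last passed the fold. Lncenc1 is a lincRNA gene of 62038 bp at chr13:97434970-97497007, and 2.13% of its reads lay in a gene inside it.

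Platr3, a lincRNA gene that overlaps no other listed gene, was higher at all 3 times. It lay at 1.06, 1.03 and 1.01 FPKM in 48 h ctrl cells and 1.29, 2.16 and 1.80 in 48 h kd, then at 1.39, 2.10 and 1.62 in 72 h kd cells. In 240 h ctrl cells it was 1.40, 1.36 and 1.41, and in 240 h kd 3.85, 3.51 and 3.37. The groups did not overlap at any of these times, and replicate 2 was the highest library of both 48 h kd and 72 h kd. The differences were 0.70 (SE 0.19, adjusted p = 0.0166), 0.67 (SE 0.17, adjusted p = 0.00143) and 1.32 (SE 0.12, adjusted p = 1.01e-07). Without 48 h kd replicate 2 the first fell to 0.54 (adjusted p = 0.0405) and was no longer called. Against 240 h ctrl in place of 48 h ctrl, Platr3 at 72 h was 0.26 (adjusted p = 0.172) and was not called.

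Platr16 lay at 0.364, 0.338 and 0.286 FPKM in 48 h ctrl cells, 0.396, 0.585 and 0.558 in 48 h kd, and 0.445, 0.400 and 0.423 in 72 h kd cells. The 240 h levels were 0.501, 0.380 and 0.388 in ctrl and 1.28, 0.999 and 1.07 in kd. The lowest 240 h kd library was thus well above the highest control. The difference was 0.62 (SE 0.14, adjusted p = 0.00652) at 48 h and 1.40 (SE 0.10, adjusted p = 7.20e-09) at 240 h. Over 3017 bp, or 7.64% of its span, Platr16 overlaps Gm13230, which was called higher at both times, by 0.65 and 1.97, and rose from a mean of 5.45 to 21.6 FPKM at 240 h. Gm13230 held a mean of 466.7 reads, which is 164.5% of those of Platr16. Reads within the shared stretch count for both genes and could not be assigned to one. Their part in the rise of Platr16 was not tested, and removing genes wholly inside a member does not reach them.

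Platr7 and Platr23 were called higher at 72 h and at 240 h. Platr7, a lincRNA gene on chromosome 10, lay at 1.15, 0.944 and 1.06 FPKM in 48 h ctrl cells, 1.07, 1.37 and 0.961 in 48 h kd, and 1.66, 1.76 and 1.98 in 72 h kd cells. At the late time it was 1.29, 1.03 and 1.49 in ctrl and 2.20, 2.06 and 2.22 in kd. The groups overlapped at 48 h and were apart at 72 and 240 h, where the differences were 0.76 (SE 0.12, adjusted p = 8.63e-06) and 0.77 (SE 0.13, adjusted p = 1.02e-04). Platr23 lay at 0.771, 0.353 and 0.277 FPKM in 48 h ctrl cells, 0.884, 1.00 and 0.672 in 48 h kd, and 1.32, 1.24 and 1.00 in 72 h kd cells. In 240 h ctrl cells it was 1.07, 1.05 and 0.765, and in 240 h kd 2.08, 1.54 and 1.84. Its control level was itself higher at 240 h than at 48 h, by 1.02 (SE 0.29, adjusted p = 0.0297), although replicate 1 of 48 h ctrl reached the lowest 240 h ctrl library.
The knockdown differences of Platr23 were 0.86 (SE 0.31, adjusted p = 0.0617) at 48 h, 1.31 (SE 0.27, adjusted p = 1.53e-04) at 72 h and 0.87 (SE 0.18, adjusted p = 9.70e-04) at 240 h. The 48 h difference was as large as that at 240 h, and it was called with quantile normalization, in 1 fit of all 15 libraries and without 48 h ctrl replicate 1. Set against 240 h ctrl, the 72 h difference was 0.29 (adjusted p = 0.215) for Platr23, and 0.51 (adjusted p = 0.00368) for Platr7, which was still higher but short of the fold. The 3 higher calls at 72 h were thus lost with that control, Platr7 by its fold alone.

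Of the 3 Platr genes with the highest mean level, Platr27 alone was called after knockdown, at 48 h. Platr10, far above the other Platr genes, lay at 15.2, 14.3 and 14.4 FPKM in 48 h ctrl cells, 17.2, 17.5 and 18.4 in 48 h kd, and 17.6, 19.4 and 17.8 in 72 h kd cells. At 240 h it was 15.3, 15.6 and 15.8 in ctrl and 17.8, 16.7 and 17.6 in kd. All kd libraries were above all controls, with log2 differences of 0.27 at 48 h and 0.16 at 240 h, short of the fold. Platr27 lay at 1.26, 1.76 and 1.12 FPKM in 48 h ctrl cells, 1.90, 2.65 and 2.18 in 48 h kd, 2.02, 1.68 and 1.86 in 72 h kd cells, 1.80, 1.40 and 1.84 in 240 h ctrl cells, and 2.66, 2.30 and 2.58 in 240 h kd. It was higher by 0.67 (SE 0.21, adjusted p = 0.0340) at 48 h and by 0.55 (SE 0.17, adjusted p = 0.0133) at 240 h, the second just short of the fold. Platr21, the remaining one, shares most of its reads with another gene and is described with the overlaps.

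Platr11 fell at all 3 times. It lay at 1.02, 1.13 and 1.50 FPKM in 48 h ctrl cells, 0.564, 0.596 and 0.406 in 48 h kd, and 0.312, 0.243 and 0.376 in 72 h kd cells. In 240 h ctrl cells it was 1.12, 1.54 and 0.819, and in 240 h kd 0.0379, 0.172 and 0.147. No kd library reached a control of either time. These levels rest on few reads, 21 to 38 in the controls and 1, 5 and 4 in 240 h kd. The differences were −1.08 (SE 0.24, adjusted p = 0.00566), −1.68 (SE 0.26, adjusted p = 3.91e-06) and −2.55 (SE 0.33, adjusted p = 6.53e-06). Platr11 was called in 6 of 6 fits that each left out 1 library at 48 h, at 72 h and at 240 h, and without 48 h kd replicate 2 it was −1.17 (adjusted p = 0.00173).

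Platr15 was called at 240 h and at neither earlier time. It lay at 0.280, 0.501 and 0.302 FPKM in 48 h ctrl cells, 0.334, 0.328 and 0.656 in 48 h kd, and 0.734, 0.277 and 0.322 in 72 h kd cells. The 240 h levels were 0.550, 0.555 and 0.367 in ctrl and 0.0648, 0.0883 and 0.0627 in kd, from 16, 16 and 11 reads against 2, 3 and 2. The 240 h groups were well apart, by −1.86 (SE 0.33, adjusted p = 1.71e-04), and the early groups overlapped.

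Platr6, Platr12 and Platr14 were lower at 240 h as well. Platr6, the lowest followed member, lay at 0.127, 0.138 and 0.123 FPKM in 48 h ctrl cells and 0.0599, 0.0677 and 0.0525 in 72 h kd cells. At the late time it was 0.162, 0.198 and 0.120 in ctrl and 0.0951, 0.0720 and 0.0409 in kd. Both pairs of groups were apart, by −0.96 (SE 0.24, adjusted p = 0.00152) and −1.09 (SE 0.28, adjusted p = 0.00391).
Platr12 lay at 0.362, 0.306 and 0.312 FPKM in 48 h ctrl cells, 0.225, 0.180 and 0.157 in 72 h kd cells, 0.672, 0.424 and 0.439 in 240 h ctrl cells, and 0.228, 0.306 and 0.326 in 240 h kd, with differences of −0.73 (SE 0.22, adjusted p = 0.00550) and −0.77 (SE 0.21, adjusted p = 0.00655). The whole of Platr12 lies inside Gpr1 on the opposite strand. Gpr1, a receptor gene, was itself −1.09 at 72 h (called) and −0.36 at 240 h (not called), and the counts do not use strand.
Platr14 lay at 1.21, 1.28 and 1.10 FPKM in 240 h ctrl cells and at 0.705, 0.725 and 0.760 in 240 h kd, well apart, with a difference of −0.70 (SE 0.10, adjusted p = 2.36e-05). At 48 h its kd libraries, at 0.807, 1.27 and 0.817 FPKM, lay on both sides of the controls at 0.993, 1.10 and 0.972. Only replicate 2 was above them, and without it the difference was −0.32 (SE 0.12, adjusted p = 0.0404).

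Platr28 changed direction with time. It lay at 0.266, 0.195 and 0.232 FPKM in 48 h ctrl cells and 0.278, 0.425 and 0.393 in 48 h kd, all 3 kd libraries being above all controls. In 72 h kd it was 0.196, 0.206 and 0.163. At 240 h it was 0.331, 0.297 and 0.264 in ctrl and 0.213, 0.157 and 0.157 in kd, now all below. The differences were 0.64 (SE 0.15, adjusted p = 0.00765) at 48 h and −0.75 (SE 0.12, adjusted p = 8.00e-05) at 240 h. Without 48 h kd replicate 2 the early one was 0.52 (adjusted p = 0.00317), under the fold.

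Of the 3 comparisons of kd with ctrl, as fitted on all libraries, Platr25 was called at 72 h and Platr26 at 48 h. Platr25, a gene that GENCODE types as protein coding, lay at 0.201, 0.211 and 0.166 FPKM in 48 h ctrl cells, 0.0870, 0.130 and 0.110 in 72 h kd cells, 0.196, 0.175 and 0.163 in 240 h ctrl cells and 0.197, 0.190 and 0.181 in 240 h kd. The 72 h kd libraries were below all others, by −0.82 (SE 0.12, adjusted p = 2.81e-06) against 48 h ctrl. Platr26 lay at 0.379, 0.281 and 0.298 FPKM in 48 h ctrl cells and 0.459, 0.628 and 0.453 in 48 h kd, a rise of 0.65 (SE 0.18, adjusted p = 0.0181). Its 240 h ctrl libraries, at 0.550, 0.527 and 0.426 FPKM, were also above 48 h ctrl, by 0.63 (SE 0.17, adjusted p = 0.0205), and overlapped 240 h kd at 0.663, 0.430 and 0.382. Without 48 h kd replicate 2, Platr26 (0.50, adjusted p = 0.0449), Platr16 (0.51, adjusted p = 0.00287) and Platr27 (0.55, adjusted p = 0.0749) lost their 48 h calls.

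**Figure D2:**
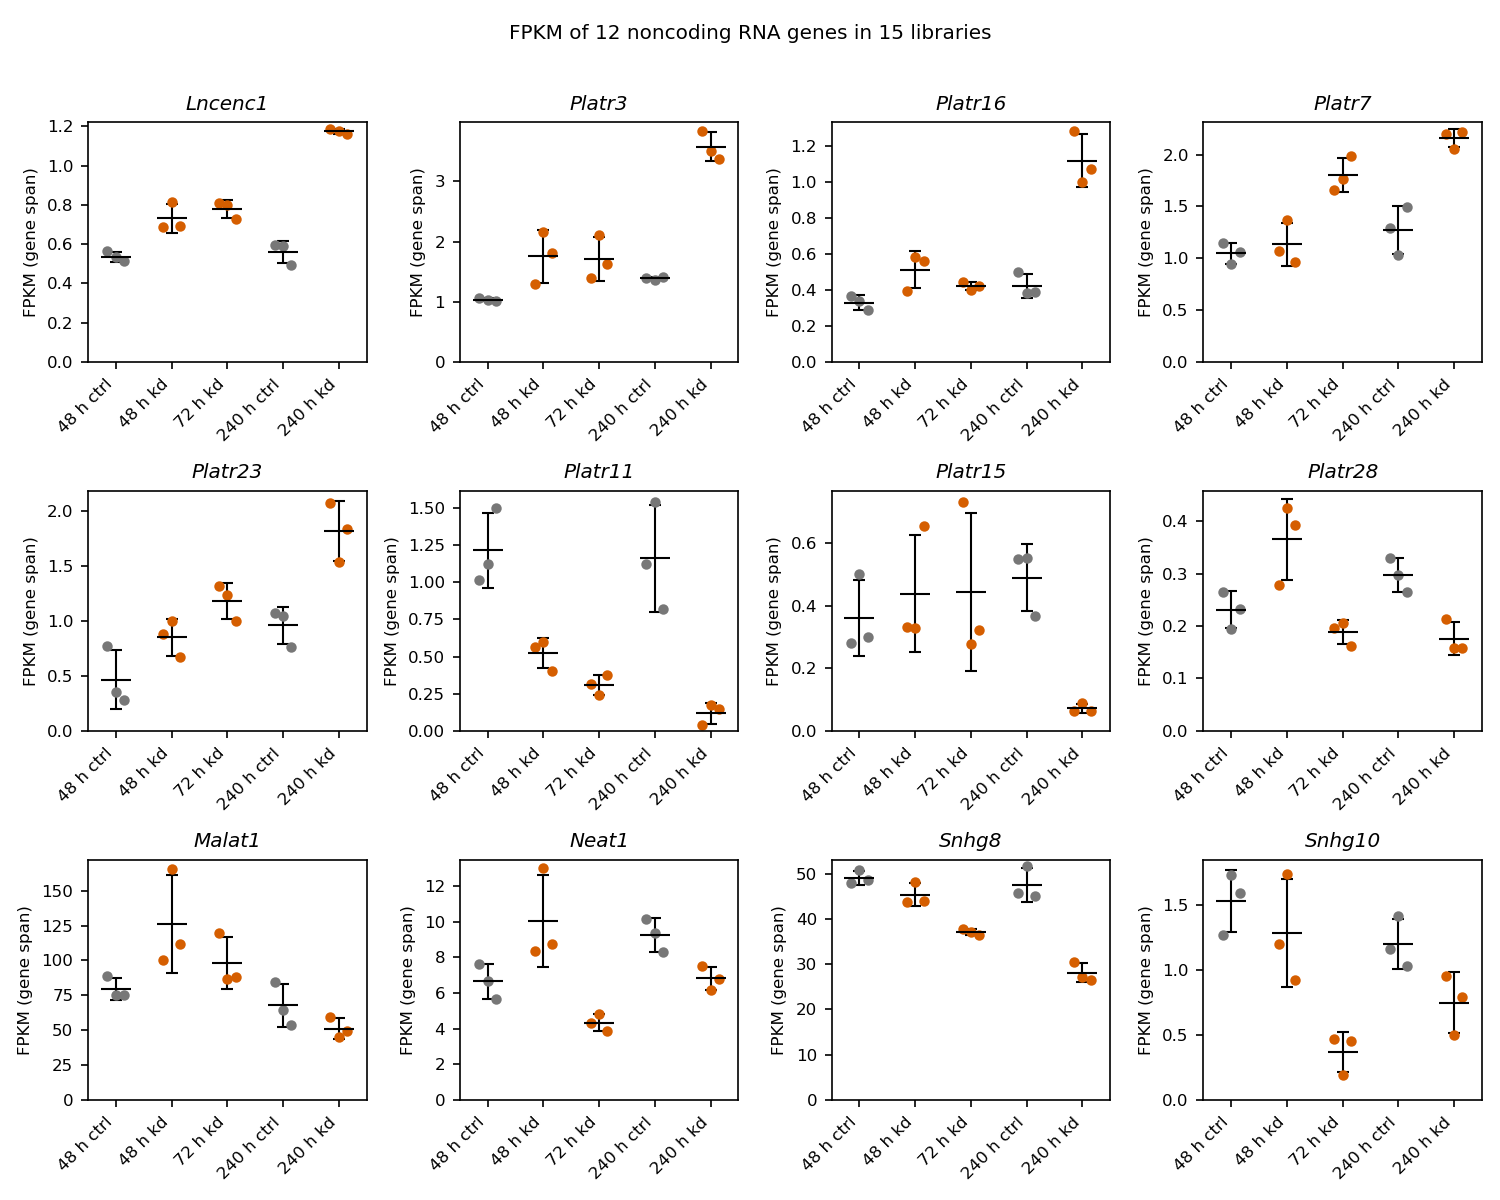
FPKM of selected members in each of the 15 libraries, on linear axes from 0, with 1 point a library (grey ctrl, orange kd) and bars for the group mean ± SD (n = 3). Lncenc1 and Platr3 are highest in 240 h kd, at 1.16 to 1.19 and 3.37 to 3.85 FPKM, and Platr11 is lowest there, at 0.0379 to 0.172.

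Malat1 and Neat1, the speckle and paraspeckle RNAs, were higher at 48 h and lower at 240 h. Malat1, the highest member, lay at 88.6, 74.9 and 75.0 FPKM in 48 h ctrl cells and 100.4, 166.0 and 112.1 in 48 h kd, with no overlap and with replicate 2 far above the others. In 72 h kd it was 120.0, 86.6 and 88.4. The 240 h levels were 84.6, 64.8 and 53.9 in ctrl and 59.1, 44.9 and 49.2 in kd, where the groups overlapped. The differences were 0.64 (SE 0.14, adjusted p = 0.00489) at 48 h, 0.29 (adjusted p = 0.00193) at 72 h and −0.39 (SE 0.11, adjusted p = 0.00985) at 240 h. The first was 0.42 (adjusted p = 1.59e-06) without 48 h kd replicate 2 and was then no longer called.

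Neat1 lay at 7.63, 6.70 and 5.66 FPKM in 48 h ctrl cells, 8.38, 13.02 and 8.75 in 48 h kd, and 4.31, 4.81 and 3.88 in 72 h kd cells. In 240 h ctrl cells it was 10.2, 9.38 and 8.28 and in 240 h kd 7.51, 6.20 and 6.77. The 48 h kd libraries were above all 48 h controls, and the 72 h kd and 240 h kd libraries were below all controls set against them. The differences were 0.57 (SE 0.14, adjusted p = 0.00950), −0.61 (SE 0.07, adjusted p = 1.08e-07, called) and −0.44 (SE 0.07, adjusted p = 6.70e-05). Without 48 h kd replicate 2, which held the highest level, the 48 h difference was 0.37 (SE 0.07, adjusted p = 2.23e-04). It was called with quantile normalization and without replicate 1 or 2 of 48 h ctrl or replicate 1 or 3 of 48 h kd. The 72 h call held in 4 of 6 fits with 1 library left out (−0.73 to −0.51). Neat1 of 240 h ctrl was above 48 h ctrl by 0.48 (SE 0.09, adjusted p = 0.00170), and against 240 h ctrl the 72 h difference was −1.10. Genes listed inside them held 10.96% of the reads of Malat1 and 11.01% of those of Neat1.

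Of 14 genes tested for proteins that build paraspeckles, 0 were called in limma at 48 h (3 at an unadjusted p under 0.05, 0 called by voom), beside 4.29% of all genes higher and 4.81% lower. At 72 h 2 were lower, beside 10.1% of all genes, the RNA-binding proteins Tardbp (−0.75, adjusted p = 6.16e-15) and Rbmx (−0.91, adjusted p = 7.78e-07), and at 240 h 1 was higher, beside 9.0% of all, Fam98a (0.60, adjusted p = 1.73e-07). These counts lay near the background.

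The Snhg genes gave no call at 48 h and were mostly lower at 240 h. At 48 h 0 of the 16 were called by limma, with 1 at an unadjusted p under 0.05 and 0 called by voom, and the log2 differences ran from −0.26 to 0.44 around a median of 0.04, 10 of them above 0. Once 48 h kd replicate 2 was left out they ran from −0.48 to 0.23 around a median of −0.10, 13 of the 16 lay below 0, still with 0 called, and Snhg1 (−0.17, adjusted p = 0.00976) and Snhg14 (−0.20, adjusted p = 0.00906) had an adjusted p under 0.05. At 72 h 2 were called lower, near the 10.1% of all genes, and at 240 h 4, beside 7.93% of all genes. At both times 0 were called higher, beside 11.9% and 9.0% of all genes. With the fold left aside, 9 were lower and 2 higher at 72 h (29.5% and 32.0% of all genes), and 11 lower and 2 higher at 240 h (22.1% and 23.0%). The medians were −0.26 and −0.27, and 13 of the 16 lay below 0 at 240 h, where 8078 of the 16369 genes did. The 2 that rose at 240 h with an adjusted p under 0.05 were Snhg14 (0.31, adjusted p = 0.0107), which spans the imprinted Ube3a region, and Snhg15 (0.20, adjusted p = 0.0348). Ube3a itself was lower at 240 h (−0.22, adjusted p = 0.00208). Snhg14 overlaps the protein-coding gene Gm38393 by 1611 bp on the same strand, and Gm38393 held a mean of 5089 reads, which is 240.1% of those of Snhg14. At 240 h Gm38393 was higher too, with a mean of 16.96 FPKM in kd against 12.12 in ctrl and a difference of 0.49 (adjusted p = 5.07e-08). Reads from the shared stretch could not be assigned to either gene, and their part in the Snhg14 value was not tested.

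Snhg8 had the lowest adjusted p of the Snhg genes at 240 h. It lay at 48.0, 50.9 and 48.7 FPKM in 48 h ctrl cells, 43.8, 48.3 and 44.0 in 48 h kd, and 37.7, 37.1 and 36.5 in 72 h kd cells. In 240 h ctrl cells it was 45.7, 51.8 and 45.1, and in 240 h kd 30.5, 27.1 and 26.6. The 72 h and 240 h kd libraries were below every control. The differences were −0.40 (adjusted p = 1.95e-06) at 72 h and −0.75 (SE 0.08, adjusted p = 3.36e-07) at 240 h, the second being called in 6 of 6 fits with 1 library left out.

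Snhg18 gave no call before 240 h and was lower then. It lay at 0.640, 0.792 and 0.733 FPKM in 48 h ctrl cells, 0.699, 0.749 and 0.617 in 48 h kd, 0.591, 0.612 and 0.643 in 72 h kd cells, 0.647, 0.634 and 0.705 in 240 h ctrl cells, and 0.389, 0.353 and 0.215 in 240 h kd. Only the 240 h kd libraries stood apart from their controls, by −0.98 (SE 0.23, adjusted p = 0.00216).

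Snhg10 and Snhg9, both short genes with few reads, were lower at 72 and 240 h. Snhg10 lay at 1.27, 1.74 and 1.59 FPKM in 48 h ctrl cells, 1.20, 1.74 and 0.923 in 48 h kd, and 0.470, 0.195 and 0.453 in 72 h kd cells, the last from 10, 4 and 10 reads. At the late time it was 1.16, 1.42 and 1.03 in ctrl and 0.958, 0.497 and 0.795 in kd. It was lowest at 72 h, by −1.79 (SE 0.27, adjusted p = 3.94e-06), and the 240 h difference of −0.63 (SE 0.25, adjusted p = 0.0498) stayed called in 2 of 6 fits with 1 library left out.
Snhg9, which lies inside the ribosomal protein gene Rps2 on the other strand, lay at 3.18, 4.15 and 4.87 FPKM in 48 h ctrl cells, 2.69, 1.49 and 3.12 in 72 h kd cells, 4.07, 4.48 and 5.57 in 240 h ctrl cells and 3.31, 2.85 and 2.53 in 240 h kd. The differences were −0.68 (SE 0.27, adjusted p = 0.0325) and −0.62 (SE 0.23, adjusted p = 0.0347). The first held in 3 and the second in 2 of 6 fits with 1 library left out. Rps2 itself was 0.02 at 72 h and −0.21 (adjusted p = 0.00319, not called) at 240 h, and the counts do not use strand.

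Of the 3 Snhg genes with the highest mean level, Snhg8 was called lower at 240 h, and Snhg1 and Snhg5 fell by less than the fold. Snhg1, host of several snoRNAs, lay at 57.8, 58.5 and 56.6 FPKM in 48 h ctrl cells, 48.7, 66.2 and 53.9 in 48 h kd, 48.7, 51.4 and 43.4 in 72 h kd cells, 59.2, 61.4 and 51.2 in 240 h ctrl cells and 49.2, 45.6 and 47.0 in 240 h kd, with differences of −0.27 at both 72 and 240 h. Snhg5 lay at 40.5, 39.0 and 39.9 FPKM in 48 h ctrl cells, 33.3, 49.8 and 39.8 in 48 h kd, 32.3, 34.5 and 29.3 in 72 h kd cells, 41.1, 43.1 and 36.3 in 240 h ctrl cells and 38.8, 33.1 and 34.5 in 240 h kd, with differences of −0.32 at 72 h and −0.18 at 240 h. In both genes 48 h kd replicate 2 was the highest of all 15 libraries.
Gas5 lay at 57.4, 49.1 and 49.3 FPKM in 48 h ctrl cells, 44.5, 71.4 and 48.4 in 48 h kd, and 47.4, 49.5 and 42.5 in 72 h kd cells. At 240 h it was 57.3, 55.6 and 41.4 in ctrl and 41.7, 33.4 and 34.9 in kd, where the highest kd library just exceeded the lowest control. The differences were 0.05 (adjusted p = 0.829), −0.16 and −0.48 (SE 0.10, adjusted p = 5.78e-04). The first turned to −0.16 (SE 0.06, adjusted p = 0.0342) without 48 h kd replicate 2. Genes inside Gas5, mainly snoRNAs, held 10.5% of its reads.

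Of 10 nonsense-mediated decay factors, 0 were called in limma at 48 h and 0 at 240 h, with 4 at an unadjusted p under 0.05 at each time and 0 called by voom. At 72 h 1 was higher, beside 11.9% of all genes, Smg9 of the Smg1 kinase complex (0.65, adjusted p = 1.74e-09). Their medians were 0.08, 0.10 and −0.04 at 48, 72 and 240 h. With 4.29% to 11.9% of all genes called in a direction, counts of 0 or 1 of 10 lay near the background.

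Several members hold another gene whose reads make up most of theirs. Sox2 held 87.1% of the reads counted for Sox2ot, and Trap1a on the opposite strand held 88.0% of those for Platr21. The stretch of Gm17300, on the opposite strand, held 93.0% of those for Snhg3. That stretch also holds Snora73b and Snora73a, on the strand of Snhg3, with 21.7% and 8.50% of its reads. Counted without strand, these reads could not be assigned to one of these genes. Sox2ot as deposited lay at 1.28, 1.33 and 1.32 FPKM in 48 h ctrl cells, 1.03, 1.02 and 1.06 in 48 h kd, 1.44, 1.46 and 1.48 in 72 h kd cells, 1.31, 1.24 and 1.25 in 240 h ctrl cells and 1.05, 1.01 and 1.02 in 240 h kd. Its differences of −0.34 (SE 0.05, adjusted p = 2.42e-04), 0.16 and −0.30 (SE 0.04, adjusted p = 8.06e-06) were close to those of Sox2 itself, −0.35, 0.14 and −0.29.

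With the reads of genes wholly inside it removed, Sox2ot lay at 90.1, 89.8 and 87.4 RPM in 48 h ctrl cells, 73.9, 74.4 and 71.8 in 48 h kd, 111.3, 106.4 and 108.5 in 72 h kd cells, 101.9, 98.7 and 104.7 in 240 h ctrl cells and 75.2, 75.3 and 81.9 in 240 h kd. The remaining signal still moved down, up and down, by −0.28, 0.29 and −0.39. The reads outside Sox2 thus moved in the direction of those inside it at each time.

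Platr21 as deposited lay at 2.31, 2.34 and 2.30 FPKM in 48 h ctrl cells, 3.02, 2.91 and 3.02 in 48 h kd, 2.43, 2.50 and 2.40 in 72 h kd cells, 2.11, 2.07 and 2.11 in 240 h ctrl cells and 2.64, 2.65 and 2.66 in 240 h kd, which is higher by 0.37 at 48 h and 0.34 at 240 h. Without the reads of genes inside it, Platr21 lay at 37.7, 34.7 and 36.5 RPM in 48 h ctrl cells, 30.5, 41.7 and 34.5 in 48 h kd, 23.6, 23.5 and 23.9 in 72 h kd cells, 43.5, 37.4 and 32.9 in 240 h ctrl cells and 44.2, 40.0 and 43.1 in 240 h kd. The rise was then gone at 48 h (−0.04, adjusted p = 0.800) and at 240 h was 0.17 (adjusted p = 0.106), while at 72 h Platr21 was lower (−0.61, SE 0.06, adjusted p = 1.10e-08) and was called.

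Snhg3 as deposited lay at 13.2, 12.9 and 11.8 FPKM in 48 h ctrl cells and 8.98, 9.36 and 8.51 in 72 h kd cells, a difference of −0.49. Without the genes inside it, Snhg3 lay at 5.18, 5.05 and 4.42 RPM in 48 h ctrl cells, 5.30, 7.16 and 6.68 in 48 h kd, 2.34, 3.16 and 2.49 in 72 h kd cells, 6.43, 4.55 and 5.63 in 240 h ctrl cells and 3.95, 4.13 and 3.89 in 240 h kd, and was called lower at 72 h (−0.84, SE 0.17, adjusted p = 1.97e-04). That subtraction also took the reads of Snhg3 itself in the stretch of Gm17300, so these low values describe the rest of its span only. The coding gene Rcc1, on the same strand, covers 98.6% of the span of Snhg3 and was −0.39 at 72 h and 0.01 at 240 h, and its reads could not be separated. The same subtraction left Snhg10 called at 72 h (−1.20, adjusted p = 0.00148), but at 240 h Snhg10 (−0.27) and Snhg9 (−0.32) lost their calls, as did Snhg9 at 72 h (−0.49). The snoRNA-class genes Scarna13 and Snora78 had held 30.2% of the reads of Snhg10 and 27.0% of those of Snhg9. Lncenc1 at 240 h was 1.08 after the subtraction.

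**Figure D3:**
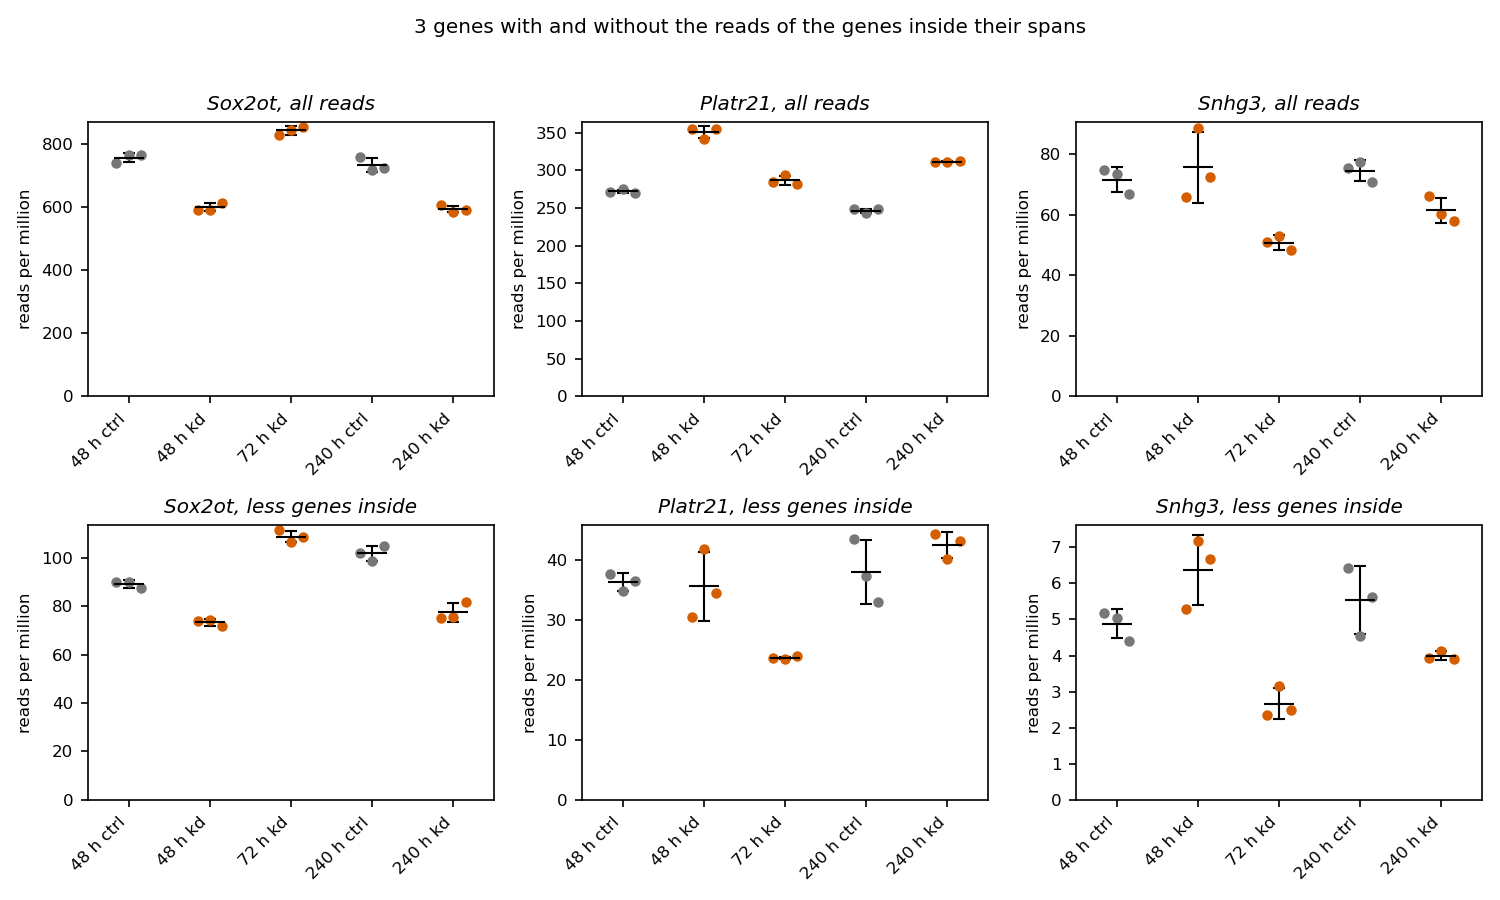
RPM of Sox2ot, Platr21 and Snhg3 in each library (grey ctrl, orange kd, bars for the group mean ± SD, n = 3), from all reads in the upper row and without the reads of genes wholly inside them in the lower row. The 48 h rise of Platr21 (0.37 on the log2 scale) is not seen in the lower row (−0.04), while Sox2ot keeps its order of groups against their controls.

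The knockdown effect at 240 h was set against that at 48 h in 1 model with an interaction term over the 12 libraries concerned, since a call at one time and not the other does not show a difference. There 3 members were called higher, where 5.49% of all genes were, and 9 lower, where 5.05% of all were. The median was −0.32 over the members and 0.00 over all genes, and 30 of the 41 were below 0. Leaving out 48 h kd replicate 2, the median was −0.16, 29 were below 0, and 4 were called higher and 6 lower. In that fit 956 of the 16369 genes were called higher and 730 lower. Platr16 (0.78, SE 0.20, adjusted p = 0.00938), Platr7 (0.67, SE 0.21, adjusted p = 0.0287) and Lncenc1 (0.63, SE 0.11, adjusted p = 4.50e-04) gained over time. Gm13230, which shares reads with Platr16, gained 1.3 in the same model. Platr28 (−1.40, SE 0.22, adjusted p = 1.50e-04), Malat1 (−1.03, SE 0.22, adjusted p = 0.00297) and Neat1 (−1.01, SE 0.19, adjusted p = 7.10e-04) went from higher to lower. For Platr28, Malat1 and Neat1, the 48 h and 240 h differences were each of opposite sign, so that the interaction joins an early rise to a later fall.

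Among the other 6, Platr15 (−2.07, SE 0.43, adjusted p = 0.00225) and Platr11 (−1.47, SE 0.42, adjusted p = 0.0179) were much lower at the later time. Snhg8 (−0.64, SE 0.10, adjusted p = 1.86e-04), Snhg18 (−0.92, SE 0.29, adjusted p = 0.0291), Snhg20 (−0.73, SE 0.24, adjusted p = 0.0371) and Platr14 (−0.59, SE 0.19, adjusted p = 0.0381) were lower too. Snhg20 lay at 6.88, 5.75 and 5.48 FPKM in 48 h ctrl cells, 5.27, 9.69 and 6.74 in 48 h kd, 4.48, 5.88 and 4.88 in 72 h kd cells, 7.42, 5.84 and 5.65 in 240 h ctrl cells and 4.53, 4.93 and 3.76 in 240 h kd, and its high 48 h kd library was again replicate 2. Malat1, Neat1, Platr15, Platr16 and Platr28 were called in all 12 fits with 1 library left out, Lncenc1, Platr11 and Snhg8 in 11, Snhg18 in 7, Platr7 in 5, and Snhg20 and Platr14 in 4. Without 48 h kd replicate 2, Snhg20, Snhg18 and Platr14 lost the call and Platr3 gained it, and without 240 h ctrl replicate 2 Platr7, Snhg20, Platr14, Snhg8 and Platr11 lost it. With the reads of genes inside removed, Snhg20 (−0.55, adjusted p = 0.106) lost the call and Snhg3 (−0.80, adjusted p = 0.0130) gained it.

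**Figure D4:**
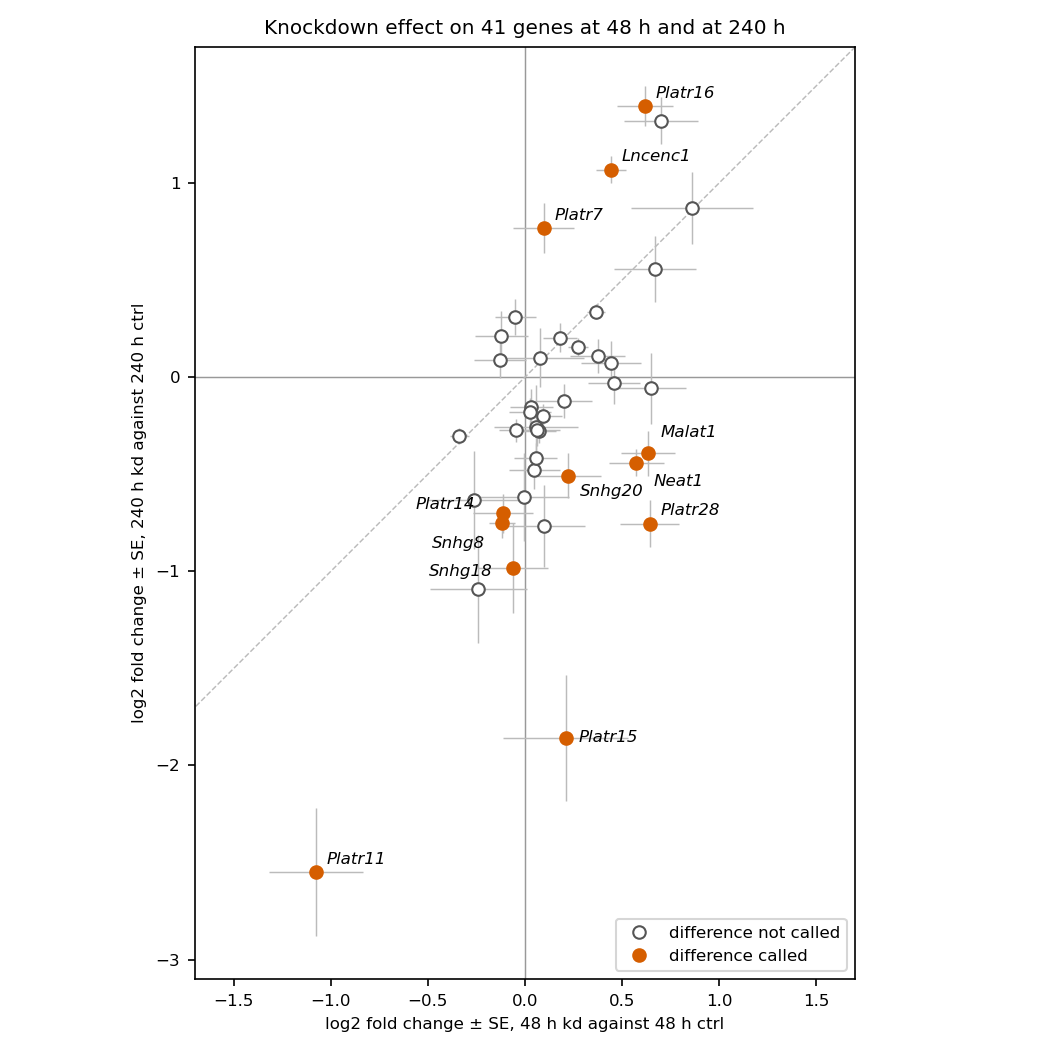
Log2 knockdown differences of the 41 followed members at 48 h (horizontal) and 240 h (vertical), 1 point a gene, bars of 1 standard error, a dashed line of equal effects, and the 12 members called for a difference between the times filled and named. Platr28 (0.64, −0.75), Malat1 (0.64, −0.39) and Neat1 (0.57, −0.44) lie in the lower right, and Platr11 (−1.08, −2.55) is lowest.

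Untreated cells changed little in these genes between 48 h and 240 h. Of the 41 members 2 were called higher, Platr23 and Platr26, where 0.855% of all genes were, and 0 lower, where 0.483% of all were. Across both directions 12 members had an unadjusted p under 0.05, and voom also called 2. Neither call was stable when 1 library was left out: Platr23 (0.77 to 1.40) and Platr26 (0.54 to 0.75) were each called in 2 of 6 such fits. The median was 0.06 over the members and −0.02 over all genes.

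From 48 h to 72 h of knockdown more members fell than rose, 16 against 3 at an adjusted p under 0.05 with the fold left aside (19.2% and 23.3% of all genes). Of the 41, 1 was called higher (6.56% of all genes) and 8 lower (6.18% of all genes), 34 lay below 0, and the median was −0.31 where that of all genes was 0.01. With 48 h kd replicate 2 left out, 14 fell and 6 rose at an adjusted p under 0.05 (21.6% and 27.1% of all genes), 31 lay below 0, and the median was −0.17. Again 1 was called higher and 8 lower, where 1201 and 890 of the 16369 genes were. The member that rose was Platr7 (0.67, SE 0.14, adjusted p = 0.00251). Neat1 (−1.19, SE 0.13, adjusted p = 2.08e-05) had the lowest adjusted p of the called members, and Snhg10 (−1.53, SE 0.31, adjusted p = 0.00177) the largest fold, from 4 to 10 reads a library in 72 h kd. Platr28 (−0.93, SE 0.15, adjusted p = 2.82e-04), Platr12 (−0.83), Platr6 (−0.72, SE 0.27, adjusted p = 0.0471) and Platr25 (−0.69) were lower too. Of the 6 fits with 1 library left out, Platr6 was called in 1, with differences of −0.89 to −0.48.
Platr4 and Platr22 were called in this comparison and, as fitted on all libraries, in none of the other 5. Set against 240 h ctrl, however, 72 h kd cells gave a lower call for Platr4 too, as they did against 48 h ctrl after centring on the median or quantile normalization. Platr4 lay at 2.16, 3.14 and 1.96 FPKM in 48 h kd and at 1.13, 1.36 and 1.29 in 72 h kd cells, apart by −0.91 (SE 0.15, adjusted p = 3.93e-04). Platr22 lay at 0.905, 1.31 and 1.13 FPKM in 48 h kd and at 0.546, 0.673 and 0.647 in 72 h kd cells, apart by −0.83 (SE 0.12, adjusted p = 1.78e-04). In both, 48 h kd replicate 2 was highest. This comparison shares 48 h kd with the 48 h comparison and 72 h kd with the 72 h one.

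The members not described above were called in none of the 6 comparisons: Platr8, Platr20 and Platr31, with mean levels of 0.151 to 0.643 FPKM, and Snhg4, Snhg6, Snhg11, Snhg12, Snhg16 and Snhg17, with 3.89 to 20.0 FPKM. As with Snhg14 and Snhg15, which gave no call either, their differences in the 3 knockdown comparisons stayed within the fold, although Platr20 and Platr31 were called lower at 72 h when set against 240 h ctrl. The widest were Platr31 (−0.50) and Snhg15 (0.49), both at 72 h. Tigar, on the opposite strand, covers 91% of the span of Platr31 and was itself −0.12 at 72 h, and the counts do not use strand.

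For background, 29 other long noncoding RNA genes were read in the same fits. At 48 h 6 were called higher and 3 lower (4.29% and 4.81% of all genes), at 72 h 3 and 5 (11.9% and 10.1%), and at 240 h 5 and 2 (9.0% and 7.93%), with medians of 0.20, −0.26 and −0.06. The medians of the Platr genes were 0.24, −0.30 and 0.09 at these times, with the same sign at 48 and 72 h and the opposite sign at 240 h. From 48 h kd to 72 h kd 1 of the 29 was higher and 10 lower (6.56% and 6.18% of all genes), with a median of −0.45. In the same list Miat, a nuclear RNA of neural and stem cells, was −1.33 at 48 h, −3.40 at 72 h and −1.06 at 240 h.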

How the data were processed

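Total RNA of 15 libraries was read as single ends on an Illumina NextSeq. According to the study's methods and the submitters' processing notes, the authors aligned to mm10 with STAR 2.7.0c, counted reads per gene in R and tested with DESeq2 1.30.0 under R 4.0.3. The deposited values are FPKM per gene, and the authors made them from reads over the whole gene span with introns, without strand. Multiplied by span and library total, 100% of the values came out as whole reads within 0.001, which gave the depth of each library.

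Reads scaled to the library total (RPM) were put on a log2 scale with a pseudocount of 0.2, and genes with a mean of 10 or more reads were fitted with limma 3.58.1 in R 4.3.3 (trended prior variance, Benjamini-Hochberg adjustment over 16369 genes), using only the groups of each comparison. A fold change on this scale understates that of low genes. Calls needed an adjusted p under 0.05 and an absolute log2 difference above 0.58. On simulated reads with 200 genes changed, 99%, 99.5% and 100% were recovered at 48, 72 and 240 h, with 5, 5 and 4 false calls. The changed genes there had more reads than the minimum used here and moved by more than the fold for calls. The simulated spread was small and no library stood apart. These shares therefore do not apply to members with few reads, to changes near the fold or to 48 h kd with replicate 2.

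Named with values were Smarcb1, the 5 genes chosen by name, every followed member called in any comparison, the 3 Platr and 3 Snhg genes of highest mean FPKM, and genes that hold most of a member's reads. Gpr1, Gm13230, Gm38393, Rps2, Rcc1, Tigar, Scarna13, Snora78, Snora73a and Snora73b, which overlap members, were added after their values were seen. So were Ube3a, Miat, Snhg3, Snhg14, Snhg15 and Platr31. Members and lists were chosen with earlier results of these data known. Annotation came from GENCODE M21, which matched 46 of 49 members, and sequences from GENCODE and RefSeq on GRCm38. Alternatives covered pseudocount, minimum, unit, test, scaling, thresholds, shared reads, left-out libraries and the replicate block.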

Additional observations from a re-analysis of the deposited data

Results flagged for a closer look

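For 12 members the interaction term gave a late knockdown effect unlike the early one in limma (48 h and 240 h, 12 libraries, adjusted p under 0.05 and beyond the fold). The difference of the effects was above 0 on the log2 scale for Platr16 (0.78), Platr7 (0.67) and Lncenc1 (0.63). It was below 0 for Platr15 (−2.07), Platr11 (−1.47), Platr28 (−1.40), Malat1 (−1.03), Neat1 (−1.01), Snhg18 (−0.92), Snhg20 (−0.73), Snhg8 (−0.64) and Platr14 (−0.59). With 48 h kd replicate 2, the library that stood apart, left out, 10 members were called, 4 above and 6 below 0, where 956 and 730 of the 16369 genes were. The part of that library's mitochondrial share in the early levels was not tested.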

How the results depend on the processing

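No called member changed sign under any alternative: of 1141 values of called members recomputed, 951 kept direction and call, 190 kept the direction only, and 0 reversed. Several alternatives could not reverse a sign, since the minimum of reads, the trend, the joint fit and the thresholds leave the log2 value as it is. Called members had also been picked for a large difference in these data. The count of members called was 7 at 48 h, 10 at 72 h, 15 at 240 h, 2 between the controls, 9 from 48 h kd to 72 h kd and 12 for the difference of effects.

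Without a minimum of reads limma called 0 at 48 h (11 at an unadjusted p under 0.05), 0 between the controls (8), 3 from 48 h kd to 72 h kd and 5 for the difference of effects. With a minimum of 50 reads, which left 31 members, the counts were 4 at 72 h, 7 at 240 h and 1 between the controls. On log2(FPKM + 0.1), also with fewer genes tested, they were 1, 6, 9, 0 (5 unadjusted), 5 and 5 in the order above. Without the trend they were 3 at 48 h and 0 between the controls (9 unadjusted), and a pseudocount of 1 gave 1 there. With no minimum fold the counts were 13, 30, 31, 6 and 19 in the first 5 comparisons, and above a log2 fold of 1 they were 1, 3, 6, 1, 2 and 5. Except where the construction of an alternative shows it, the cause was not tested.

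Leaving out 1 library gave 1 to 10 members at 48 h, with 1 without kd replicate 2, 3 without ctrl replicate 3 and 4 without kd replicate 3. It gave 9 to 10 at 72 h, 13 to 17 at 240 h, 7 to 12 from 48 h kd to 72 h kd and 7 to 15 for the difference of effects, the 7 without 240 h ctrl replicate 2. Between the controls it gave 0 to 3, with 0 where replicate 2 or 3 of 48 h ctrl or replicate 1 or 2 of 240 h ctrl was left out (8 to 12 at an unadjusted p under 0.05).

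With the replicate block the counts were 7, 10, 14, 3, 10 and 12. Same-numbered libraries deviated together with correlations of −0.20 to 0.19, never above 0.1 in every pair of a comparison. With so few libraries a group this cannot settle whether they were paired, and the labels give only the replicate number. By voom the counts were 7, 10, 15, 2, 11 and 12. Members with fewer than about 10 reads in a group, such as Platr11 and Platr15 in 240 h kd, have folds limited by counting.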
